A study of Homo sapiens with 6 samples.

Results

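The genes STC1, SERPINB9, RNF125, NATD1, MFAP4 and B3GNT2 are described here, 6 of the 40396 genes in the expression table of H1 human embryonic stem cells on day 3 of definitive endoderm (DE) differentiation. They were chosen by their FPKM values, as the well-expressed genes most consistently lower with saracatinib (SAR). That choice used the comparison of SAR with control in all 6 libraries, so the difference between the groups is given for them as a description, without a test. Both groups were H1 cells, an established embryonic stem cell line, in B27-supplemented medium with 50 ng/mL activin A, and with 2.5 µM of the GSK3 inhibitor CHIR99021 for the first 24 hours. The SAR group (3 libraries) received 0.5 µM SAR, known as an inhibitor of the Src family kinases, throughout the differentiation. The control group (3 libraries) received an equal volume of the solvent DMSO. The authors reported that this dose did not effectively lower the phosphorylation of Src, but did lower that of focal adhesion kinase (FAK). Polyadenylated RNA was sequenced, and levels are FPKM, fragments relative to gene length and to all fragments mapped in that library, so that levels of different genes are compared per length. Both groups were differentiated cultures of 1 cell line at 1 time point. Whether the 3 libraries of a group came from separate cultures is not given in the sources used here, so the spread between them may be technical. In RNA from whole cultures, fewer cells expressing a gene and less RNA per cell cannot be told apart.

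The 6 genes belong to different systems. STC1 encodes stanniocalcin 1, a secreted glycoprotein hormone first known from calcium balance in fish, which in mammals also inhibits the pappalysin proteases that release insulin-like growth factors from their binding proteins. SERPINB9 encodes a serpin that stays inside the cell and inactivates granzyme B, the protease that cytotoxic lymphocytes deliver to their targets, and RNF125 encodes a RING-type ubiquitin ligase that marks the viral RNA sensor RIG-I for degradation. MFAP4 encodes an extracellular glycoprotein with a fibrinogen-like domain that associates with microfibrils and elastin. B3GNT2 encodes a glycosyltransferase that adds N-acetylglucosamine to galactose and so extends poly-N-acetyllactosamine chains, the ligands of galectins, and NATD1 encodes a little-studied protein with an N-acetyltransferase domain. DE itself is the germ layer from which gut, liver and pancreas arise, and is formed in culture under high activin signaling.

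The DNA just upstream of the start sites of these genes is shown as a description. The genes were chosen for falling with SAR, so their moving together is not a result. The RefSeq table of promoter windows (GRCh38.p14) held 4 of the 6 genes, and the 250 bases before the start are given for 3 of them, 5′ to 3′ on the strand of the gene. Capitals mark matches, on either strand, to the TATA box TATAAA, the TEAD motif GGAATG, the core ACGTG of hypoxia response elements, the SMAD motif CAGAC and the NF-kappaB consensus. Matches are a description of the letters and not evidence of binding.
SERPINB9, chr6:2903310-2903559, minus strand: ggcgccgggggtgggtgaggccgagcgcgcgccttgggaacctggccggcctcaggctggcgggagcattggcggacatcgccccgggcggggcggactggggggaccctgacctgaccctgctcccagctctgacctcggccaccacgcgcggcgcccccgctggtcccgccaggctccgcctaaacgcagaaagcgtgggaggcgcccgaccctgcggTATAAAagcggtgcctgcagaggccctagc
NATD1, chr17:21253411-21253660, minus strand: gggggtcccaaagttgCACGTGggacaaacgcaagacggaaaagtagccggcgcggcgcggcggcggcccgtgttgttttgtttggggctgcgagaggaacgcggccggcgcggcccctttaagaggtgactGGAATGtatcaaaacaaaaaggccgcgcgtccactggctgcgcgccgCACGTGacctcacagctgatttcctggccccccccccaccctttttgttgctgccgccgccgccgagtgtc
B3GNT2, first start, chr2:62195865-62196114, plus strand: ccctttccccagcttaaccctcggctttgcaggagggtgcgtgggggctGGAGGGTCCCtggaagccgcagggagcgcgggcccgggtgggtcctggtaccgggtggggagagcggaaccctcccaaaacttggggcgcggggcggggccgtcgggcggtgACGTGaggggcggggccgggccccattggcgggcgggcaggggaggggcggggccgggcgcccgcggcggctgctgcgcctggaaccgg
B3GNT2, second start, chr2:62215268-62215517, plus strand: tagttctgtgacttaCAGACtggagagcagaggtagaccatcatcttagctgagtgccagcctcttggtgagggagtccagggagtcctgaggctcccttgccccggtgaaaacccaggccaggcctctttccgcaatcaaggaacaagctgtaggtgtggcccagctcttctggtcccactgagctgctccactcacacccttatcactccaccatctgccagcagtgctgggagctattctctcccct

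The promoters of these genes were different in build. In SERPINB9 a TATAAA starts 30 bases before the transcription start, a motif held by 10.7% of the 35116 windows in the table, and the window has 74.4% G and C. The NATD1 window has no TATAAA, 1 GGAATG 118 bases before the start (11.9% of windows hold one) and 2 stretches of CACGTG, each of which reads as ACGTG on both strands (18.5% of windows hold ACGTG). B3GNT2 has 2 annotated starts with unlike windows. The first has 77.6% G and C, 27 CpG dinucleotides, 5 GC boxes (GGGCGG, not capitalised above and held by 42.6% of windows), 1 ACGTG and 1 match to the NF-kappaB consensus, which 9.96% of windows hold. The second, which lies inside the gene, has 56.8% G and C, 2 CpG and 1 CAGAC (38% of windows). The median window has 58% G and C and 11 CpG. The RNF125 window, which lies in an annotated first exon and is not printed, has 70% G and C, 26 CpG and a single GC box, so that the first or only windows of these 4 genes had between 26 and 28 CpG, more than 80.4% to 84.1% of all windows. Letters of the AP-1 motif TGANTCA, the forkhead motif TGTTTAC or the CArG box were not found in any of these 5 windows, where 6.57%, 2.98% and 1.16% of all windows hold them.

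The 6 genes covered a wide range of levels in control DE cells. SERPINB9 was the most abundant at 234 FPKM ± 7.44 (SD, n = 3), followed by STC1 at 185 ± 20.1 and B3GNT2 at 121 ± 9.89. MFAP4 stood at 34.6 FPKM ± 1.02, NATD1 at 28.0 ± 1.43 and RNF125 at 25.6 ± 2.36, and of the neighbours in this order only NATD1 and RNF125 overlapped. All 6 lay high among the 16371 genes tested (those averaging 0.5 FPKM or more), above 90.5% of them for RNF125 and above 99.2% for SERPINB9. With SAR the order changed. SERPINB9 was still the most abundant at 75.3 FPKM ± 5.54, B3GNT2 at 37.3 ± 2.59 now lay above STC1 at 28.8 ± 3.36, MFAP4 at 10.8 ± 0.762 and NATD1 at 10.7 ± 0.183 overlapped, and RNF125 was lowest at 7.17 ± 0.216.

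**Figure D1:**
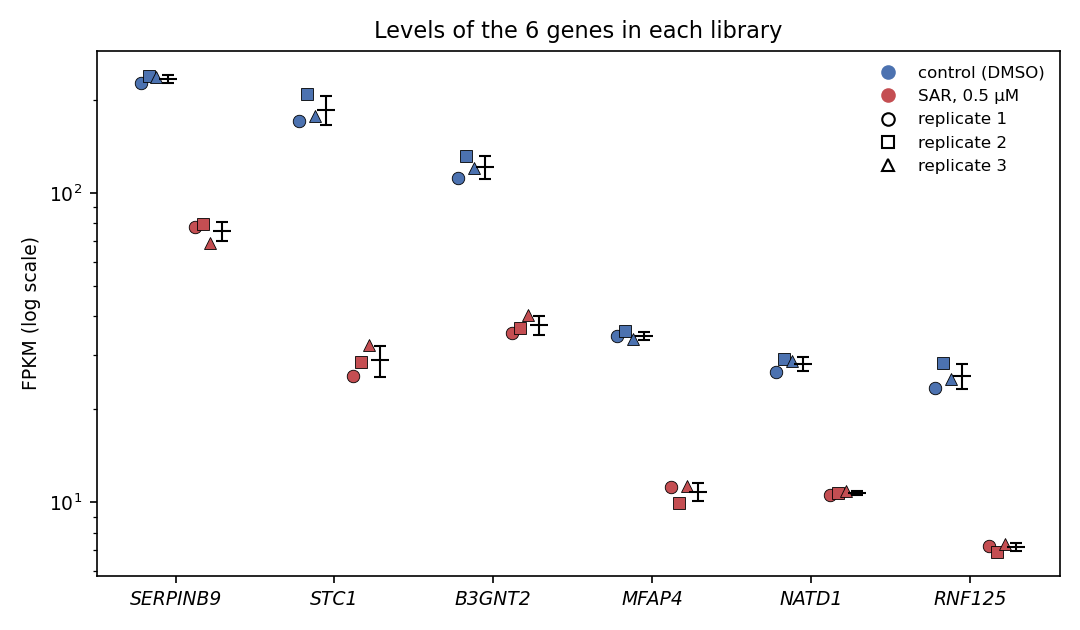
Level of each of the 6 genes in each library (FPKM, log scale), control in blue and SAR in red, with the replicate number as the marker shape and the mean ± SD of the 3 libraries as a black bar beside the points. In each gene the 3 SAR libraries lie below the 3 control libraries, and STC1 passes from above B3GNT2 to below it.

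STC1 showed the largest difference of the 6. Its levels were 171, 208 and 177 FPKM in control libraries 1 to 3 and 25.6, 28.4 and 32.3 FPKM in SAR libraries 1 to 3. The groups do not overlap, and the lowest control library was 5.31 times the highest SAR library. SAR levels were 13.8%, 15.3% and 17.4% of the control mean, which is a log2 fold change of -2.69 (SE 0.108) on the log2(FPKM + 0.1) scale used throughout. Among the 4261 genes averaging 10 FPKM or more, no gene had a more negative log2 fold change. The gene (ENSG00000159167) lies on chromosome 8 from 23841915 to 23854807, minus strand (GRCh38, GENCODE 29, as for the other positions), and its values rest on 13783 to 21045 reads per control library and 1765 to 2454 per SAR library. Read numbers, here and for the other genes, were recovered from the FPKM and are not the authors' counts. The spread between replicates, with a coefficient of variation of 10.8% in control and 11.7% with SAR, was well above the 0.772% and 2.2% that counting alone would give.

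SERPINB9, the granzyme B inhibitor, was at 226, 239 and 237 FPKM in the control libraries and at 77.6, 79.2 and 68.9 FPKM in the SAR libraries. The control libraries lay within 1.06-fold of each other, and the lowest of them was 2.85 times the highest SAR library. SAR libraries held 33.2%, 33.8% and 29.4% of the control mean, a log2 fold change of -1.64 (SE 0.0677). Of the 6 genes it was the only one with its lowest SAR value in library 3. SERPINB9 (ENSG00000170542, chromosome 6, 2887266 to 2903280, minus strand) had the deepest counts, 18558 to 24224 reads per control library and 5252 to 5563 per SAR library, and its level with SAR was still above that of 97% of the genes tested.

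RNF125, the RIG-I ubiquitin ligase, was at 23.5, 28.2 and 25.1 FPKM in control and at 7.21, 6.93 and 7.36 FPKM with SAR. The SAR libraries lay within 1.06-fold of each other, between 27.1% and 28.7% of the control mean, and the log2 fold change was -1.82 (SE 0.0763). Their coefficient of variation of 3.01% was no larger than the 3.64% expected from counting 712 to 820 reads, while in control it was 9.22% against 1.72% from counting. The gene (ENSG00000101695, chromosome 18, 32018372 to 32073213, plus strand) moved furthest down in rank, from above 90.5% of the tested genes to above 65.2%. Of its exon bases, 8.28% are shared with a second annotated gene on the same strand, so that a part of its reads cannot be assigned with certainty.

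NATD1, the N-acetyltransferase-domain gene, had the smallest difference of the 6 and the tightest one. It was at 26.4, 29.1 and 28.6 FPKM in control and at 10.6, 10.7 and 10.9 FPKM with SAR, which is 37.7%, 38.3% and 39% of the control mean and a log2 fold change of -1.37 (SE 0.0568). The lowest control library was 2.42 times the highest SAR library, and the coefficient of variation of 1.7% among SAR libraries was below the 3.3% that counting 869 to 991 reads would give. NATD1 (ENSG00000274180) lies on chromosome 17 from 21238870 to 21253410, minus strand.

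MFAP4, the microfibril-associated gene on the same chromosome (ENSG00000166482, 19383442 to 19387240, minus strand), was at 34.4, 35.7 and 33.7 FPKM in control and at 11.2, 9.97 and 11.3 FPKM with SAR. The groups were separated by a factor of 2.98 between the lowest control and the highest SAR library. The control libraries had the smallest coefficient of variation of the 6 genes, 2.96%, close to the 2.51% from counting, and the log2 fold change was -1.67 (SE 0.0662). It rests on the fewest reads, 1338 to 1834 per control library and 355 to 438 per SAR library. An overlap of 103 exon bases, 4.79% of its exons, with MAPK7 on the opposite strand is a limit, since the strand setting of the counting is not given in the sources used here.

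B3GNT2, the poly-N-acetyllactosamine transferase (ENSG00000170340, chromosome 2, 62196113 to 62224731, plus strand), was at 112, 132 and 120 FPKM in control and at 35.2, 36.5 and 40.2 FPKM with SAR. No library of one group came near the other, the lowest control being 2.8 times the highest SAR library. The log2 fold change was -1.70 (SE 0.0795), and SAR libraries held 29%, 30.1% and 33.1% of the control mean.

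**Figure D2:**
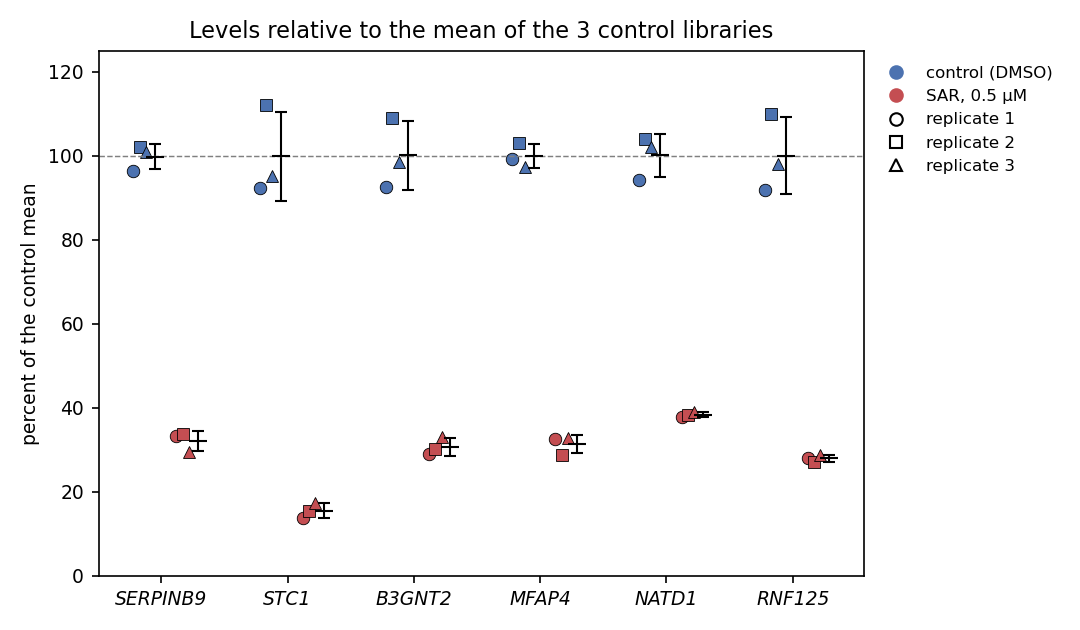
The same values as a percent of the mean of the 3 control libraries of each gene (dashed line at 100%), with the mean ± SD as a black bar beside the points. SAR libraries of 5 genes lie between 27.1% and 39% and those of STC1 between 13.8% and 17.4%.

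The small differences among replicates ran in parallel in several of the 6 genes. Control library 2 was the highest control for all 6, and control library 1 the lowest for 5, with library 3 lowest for MFAP4. Library 2 was the highest control for 31.3% of all tested genes, and for 60.2% of the 259 genes called lower with SAR in the same fit. Among the SAR libraries, library 3 was the highest for 5 genes and library 2 for SERPINB9, where library 3 was highest for 40.2% of all tested genes. Rescaling each library by the median ratio left these orders of the 6 genes as they were. It made library 2 the highest control for 39.7% of all tested genes and for 63.3% of those called lower. Without control library 2 the log2 fold changes of the 6 genes ranged from -2.60 for STC1 to -1.35 for NATD1, and across all alternatives they ranged from -2.81 to -1.31.

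Among all 16371 tested genes, 259 (1.58%) were called lower with SAR and 559 (3.41%) higher, at a Benjamini-Hochberg adjusted p under 0.05 in limma and an absolute log2 fold change above 1. After median-ratio rescaling the counts were 363 lower and 397 higher. The middle gene of the 16371 had a log2 fold change of 0.12, and of 0.00 after that rescaling. At the adjusted p alone, 9.55% of the tested genes were lower and 23.7% higher. All 6 genes fall among those called lower, as their choice required, and the median of their log2 fold changes was -1.68. When the 4261 genes averaging 10 FPKM or more were ordered by the moderated t of the fit, lower first, an order that restates the choice, MFAP4 came 1, STC1 4, NATD1 5, SERPINB9 6, RNF125 8 and B3GNT2 11. The genes between them that were not picked were COL5A2 (2), LEFTY1 (3), HLA-DRB1 (7), ADAM19 (9) and DUSP5 (10), and the next one after B3GNT2 was IER3 (12). By log2 fold change alone the 6 were more scattered, from 1 for STC1 to 25 for NATD1.

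**Figure D3:**
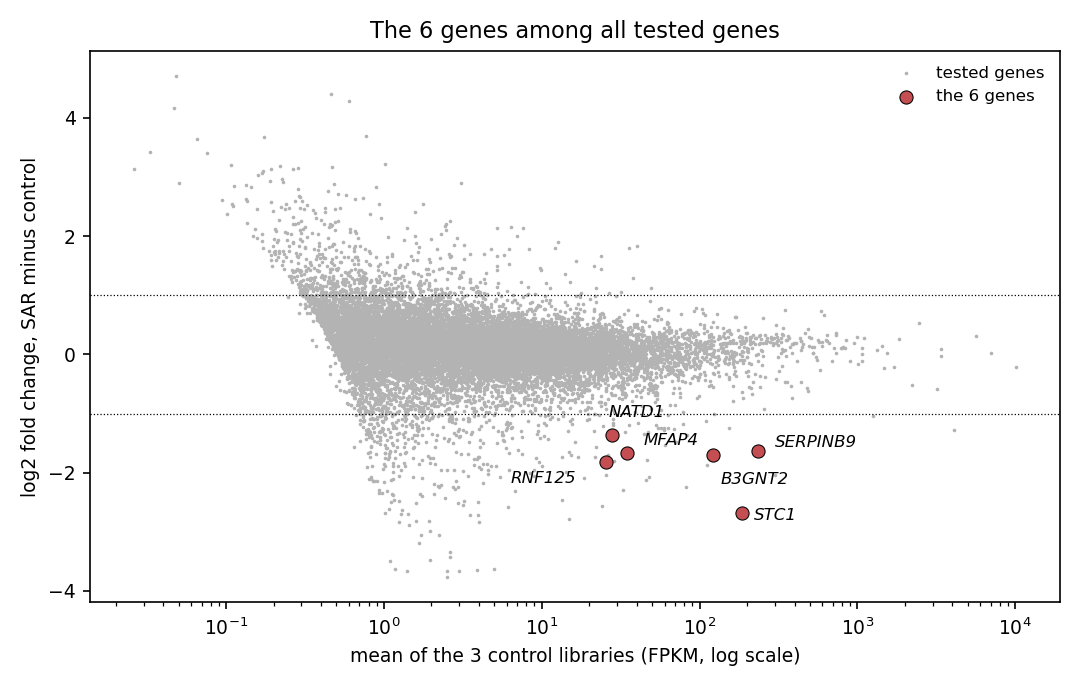
Log2 fold change (SAR minus control) against the mean of the 3 control libraries (FPKM, log scale) for all 16371 tested genes in grey, with the 6 genes in red and dotted lines at -1 and 1. The 6 lie at 25.6 to 234 FPKM, where few other genes lie below -1.

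The families and pathways around the 6 genes were followed in lists of their partners, to see which of these were measured and how they moved. The counts of every list stand beside shares over all tested genes of 1.58% called lower and 3.41% called higher. At the adjusted p alone these shares were 9.55% lower and 23.7% higher. With such shares, 0 calls in a short list says little about that list. The shares are over genes of all types, where 259 were called lower and 559 higher. When only protein-coding genes were tested, 113 were called lower and 380 higher. For the stanniocalcin and pappalysin axis, 4 of 8 other genes were tested, 1 was called higher and 0 lower. STC2, the other stanniocalcin, was at 3.92 to 4.55 FPKM in control and 3.43 to 4.28 with SAR, with overlapping groups (log2 fold change -0.13, adjusted p = 0.335). PAPPA and PAPPA2, the proteases that STC1 inhibits, were below 0.5 FPKM in every library and were not tested. Their substrate IGFBP5, an insulin-like growth factor binding protein, rose from 0.974, 1.01 and 1.05 FPKM to 12.2, 11.9 and 7.49 FPKM (3.22, SE 0.183, adjusted p = 0.0002). IGFBP4, a substrate of PAPPA, was at 36.6 to 42.8 FPKM in control and 54.6 to 61.7 with SAR, which passed the adjusted p but not the fold (0.52, adjusted p = 0.00443). IGF1R, the receptor of insulin-like growth factors, named after its values were seen, was lower by the same measure (-0.43, adjusted p = 0.00385).

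Few other serpins of clade B, the intracellular branch to which SERPINB9 belongs, were expressed. Of 12 others 2 were tested, and 9 stayed under 0.5 FPKM in all libraries, SERPINB8 among them at 0.0312 to 0.102 FPKM. SERPINB1 was at 15.9 FPKM ± 0.532 in control and 14.8 ± 0.717 with SAR (-0.10, adjusted p = 0.236), and SERPINB6 at 3.49 ± 0.356 and 3.64 ± 0.135 (0.06, adjusted p = 0.618). In limma neither was called, neither had an unadjusted p under 0.05, and voom on recovered reads called 0 of 2. The target protease GZMB was at 0 to 0.162 FPKM and the pore-forming PRF1 at 0.0714 to 0.363 FPKM, so SERPINB9 was abundant in cells in which both were near the lower limit of the table. Of the granzymes, perforin and granzyme B substrates together, 10 of 17 were tested. Limma called 0, while 2 were lower and 2 higher at the adjusted p alone, 2 and 3 at an unadjusted p under 0.05, and voom called 0.

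RNF125 acts on RIG-I signaling, whose sensors were barely expressed. RIGI was at 0.0522 to 0.142 FPKM and IFIH1 at 0.0208 to 0.197 FPKM over the 6 libraries, both below the filter. The adaptor MAVS was present at 7.96 FPKM ± 0.476 in control and 7.85 ± 0.216 with SAR (-0.02, adjusted p = 0.852), and its groups overlap. Of 33 other genes of the pathway 28 were tested and limma called 0, with 3 lower and 8 higher at the adjusted p alone, 3 and 11 at an unadjusted p under 0.05, and 0 called by voom. The largest increases of the list, named after their values were seen, were those of RNF135, a ubiquitin ligase that activates RIG-I (4.91 FPKM ± 0.334 to 8.28 ± 0.486, 0.74, adjusted p = 0.00134), and ISG15, a ubiquitin-like modifier (16.2 ± 1.17 to 26.3 ± 1.16, 0.70, adjusted p = 0.00122). TRIM25, another RIG-I ligase, was at 0.854 to 1 FPKM in control and 1.13 to 1.46 with SAR and missed the threshold (0.44, adjusted p = 0.0549). Of the 3 RING ligases related to RNF125, RNF114 was lower by the adjusted p (32.2 FPKM ± 0.592 to 25.9 ± 1.09, -0.31, adjusted p = 0.00579), RNF138 had a log2 fold change of -0.12 (adjusted p = 0.272) and RNF166 one of 0.18 (adjusted p = 0.113). None of the 3 was called in limma or voom, and RNF114 alone had an unadjusted p under 0.05.

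Of the GNAT-type N-acetyltransferases, the superfamily of the NATD1 domain, 22 of 30 others were tested, and their median log2 fold change was 0.27, against 0.12 over all tested genes. NAT8L, which makes N-acetylaspartate, was called higher (0.972 FPKM ± 0.0354 to 2.21 ± 0.26, 1.10, adjusted p = 0.00155), and came under the fold threshold after rescaling (0.99), with quantile normalization (0.90) and with a pseudocount of 1 (0.70). A further gene named after its values were seen is SAT1, which acetylates polyamines and was at 32.6 to 39 FPKM in control and 56.9 to 61 with SAR (0.75, adjusted p = 0.00129). Limma called 0 genes of this list lower, 0 had a lower value at an unadjusted p under 0.05 and voom called 0 lower. At the adjusted p alone 9 of the 22 were higher, beside 23.7% of all tested genes. The number higher at an unadjusted p under 0.05 was 13, and voom called 3 higher.

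The microfibril and elastic fibre genes around MFAP4 had a median log2 fold change of 0.30 (0.18 after rescaling) over 27 tested of 32. The called gene was EFEMP1, fibulin 3, which rose from 1.41 FPKM ± 0.327 to 4.17 ± 0.508 (1.52, adjusted p = 0.00174). MFAP2 and MFAP1, which share the name of MFAP4 but not its fold, were higher at the adjusted p alone, MFAP2 at 21.7 FPKM ± 0.295 and 27.6 ± 0.637 (0.35, adjusted p = 0.00304) and MFAP1 at 18.4 ± 0.799 and 22.8 ± 0.785 (0.30, adjusted p = 0.00888). The crosslinking enzymes LOX (0.81, adjusted p = 0.0138) and LOXL1 (0.58, adjusted p = 0.0029, named after its values were seen) also passed the adjusted p but not the fold. The fibrillins FBN1 (1.47 FPKM ± 0.102 and 1.13 ± 0.208, adjusted p = 0.103) and FBN2 (15.8 ± 1.79 and 14.7 ± 1.6, adjusted p = 0.503), which form the core of microfibrils, did not pass. In all, limma called 0 of the list lower, with 1 lower at the adjusted p alone, 2 at an unadjusted p under 0.05 and 0 called lower by voom. In the other direction, 11 of the 27 were higher at the adjusted p alone, beside 23.7% of all tested genes. At an unadjusted p under 0.05 the number higher was 15, and voom called 1 higher. Of 22 other proteins with a fibrinogen domain only 5 were tested, and the angiopoietins moved in opposite directions. ANGPT1, the agonist of the TIE2 receptor, fell from 1.22, 1.25 and 0.944 FPKM to 0.185, 0.323 and 0.206 FPKM (-1.89, SE 0.261, adjusted p = 0.00324), a call lost with a pseudocount of 1, where it was -0.79. ANGPT2, a context-dependent antagonist of the same receptor, rose from 1.58 FPKM ± 0.179 to 8.8 ± 1.56 (2.40, adjusted p = 0.000238).

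In the synthesis of poly-N-acetyllactosamine, 32 of 40 other genes were tested, 1 was called lower and 0 higher. B3GNT5, which starts the lactosylceramide branch of glycolipids with the same linkage, fell from 5.47, 6.75 and 6.13 FPKM to 2.7, 2.5 and 2.64 FPKM (-1.19, SE 0.0915, adjusted p = 0.000522), or by 0.98 on the log2 scale with a pseudocount of 1. B4GALT4, a galactosyltransferase, named after its values were seen, was at 24.8, 31.8 and 28.2 FPKM in control and 14.7, 14.7 and 14.6 FPKM with SAR, just short of the fold threshold (-0.94, adjusted p = 0.00107), and past it after rescaling (-1.06) or without control library 1 (-1.03). GCNT2, which branches the chains, was lower at the adjusted p alone (-0.35, adjusted p = 0.0155). The galactosyltransferase B4GALT1, with 16.2 FPKM ± 1.55 and 16 ± 1.86 (adjusted p = 0.893), did not pass. Nor did B3GNT7, with 9.04 ± 0.353 and 8.59 ± 0.167 (adjusted p = 0.357), or the galectins LGALS1 (-0.15, adjusted p = 0.129) and LGALS3 (0.11, adjusted p = 0.454). At the adjusted p alone 4 genes of this list were lower and 6 higher, with 5 and 8 at an unadjusted p under 0.05 and 0 called higher by voom.

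**Figure D4:**
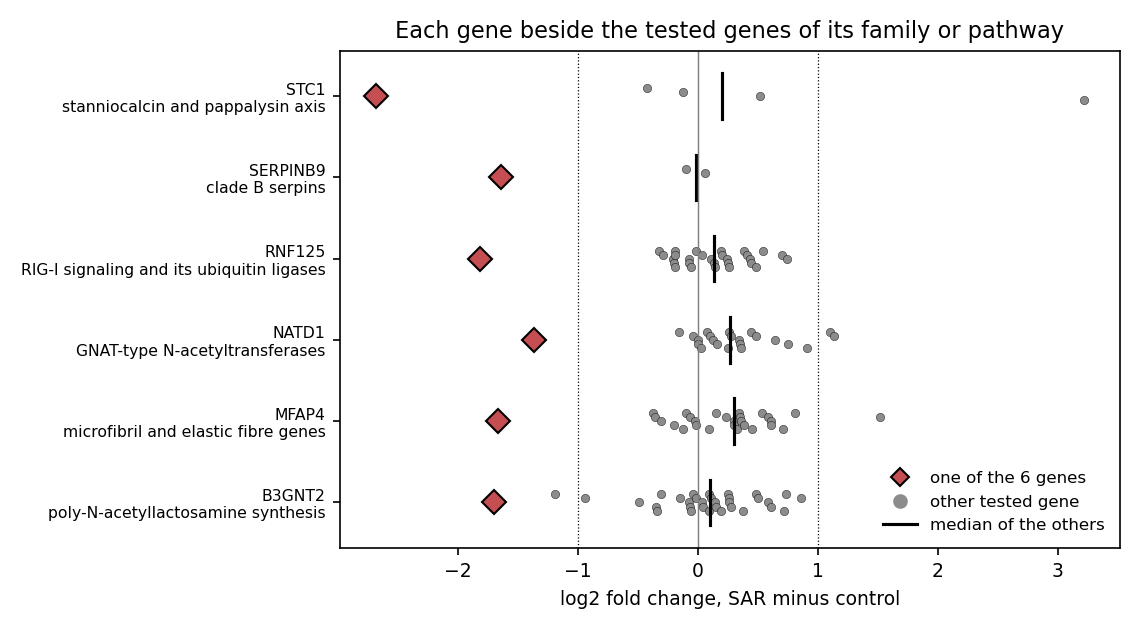
Log2 fold change (SAR minus control) of each gene (red diamond) beside the other tested genes of its family or pathway (grey points) and their median (black line), with dotted lines at -1 and 1. The medians of the 6 lists drawn lie between -0.02 and 0.30, and 1 grey point, B3GNT5, lies below -1, the fibrinogen-domain proteins and the RING ligases related to RNF125 not being drawn.

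A list of NF-kappaB-responsive genes was included because SERPINB9 and several chemokines are known to respond to that factor. Of the 39 measured ones 28 were tested, and 3 were called lower and 1 higher, where 1.58% and 3.41% of all tested genes were. At the adjusted p alone 6 were lower and 9 higher, beside 9.55% and 23.7% of all tested genes. The median was 0.04 (-0.09 after rescaling). NFKBIA, the inhibitor that NF-kappaB induces as feedback, fell from 70.6, 85.4 and 78.1 FPKM to 37.1, 32.9 and 33.6 FPKM (-1.17, adjusted p = 0.000432). IER3, an early stress-response gene, fell from 112 FPKM ± 9.14 to 30.5 ± 3.26 (-1.87, adjusted p = 0.000142), and the chemokine CCL2 from 60.8 ± 5.08 to 21 ± 2.63 (-1.53, adjusted p = 0.000402). CXCL3, another chemokine, was called higher at low levels (0.276 FPKM ± 0.0956 to 0.806 ± 0.302, 1.25, adjusted p = 0.0363), a call lost under 9 of 15 alternatives, among them leaving out any 1 control library (adjusted p = 0.052, 0.0927 and 0.0714) or SAR library 2 (adjusted p = 0.0962). BCL2L1 and GADD45B, named after their values were seen, moved apart at the adjusted p alone, the survival gene BCL2L1 upward (7.59 FPKM ± 0.657 to 15 ± 0.44, 0.97, adjusted p = 0.000548, and 1.02 without control library 1) and GADD45B downward (29.1 ± 3.82 to 18.1 ± 1.6, -0.68, adjusted p = 0.00542).

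Genes next to the 6 on the chromosome were read out to see whether the lower values extended beyond the genes themselves. Of the 24 nearest protein-coding genes, 2 on each side, 18 were tested, with a median log2 fold change of -0.04 and a range from -0.61 to 0.37. In limma 0 of 18 were called, 4 were lower and 1 higher at the adjusted p alone, 4 and 2 at an unadjusted p under 0.05, and voom called 0. Over all tested genes 1.58% were called lower and 3.41% higher, so 0 calls among 18 genes says little about the neighbours. At the adjusted p alone 9.55% of all tested genes were lower and 23.7% higher. SERPINB9 lies between 2 serpins of its own clade, SERPINB1 at 45.3 kb and SERPINB6 at 44.9 kb, both given above. TRAPPC8, a trafficking-complex subunit 65.2 kb from RNF125, had the largest difference of the neighbours, at 14.8, 15.7 and 15.4 FPKM in control and 10.2, 9.58 and 10.2 FPKM with SAR (-0.61, adjusted p = 0.000926). On the other side of RNF125, its relative RNF138 lies at 18.6 kb. MAP2K3, a p38 kinase kinase 31.3 kb from NATD1, was at 13.2 FPKM ± 0.938 and 9.62 ± 0.435 (-0.46, adjusted p = 0.00479), and TMEM11, 24.2 kb to the other side, at 15.8 ± 0.349 and 13.2 ± 1.08 (-0.27, adjusted p = 0.0291). MAPK7, the kinase gene that overlaps the end of MFAP4, was at 5.5 FPKM ± 0.284 and 4.03 ± 0.25 (-0.44, adjusted p = 0.00632), while B9D1, 5.25 kb from MFAP4, had a log2 fold change of 0.14 (adjusted p = 0.165). The 4 neighbours of STC1 were all below the filter.

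**Figure D5:**
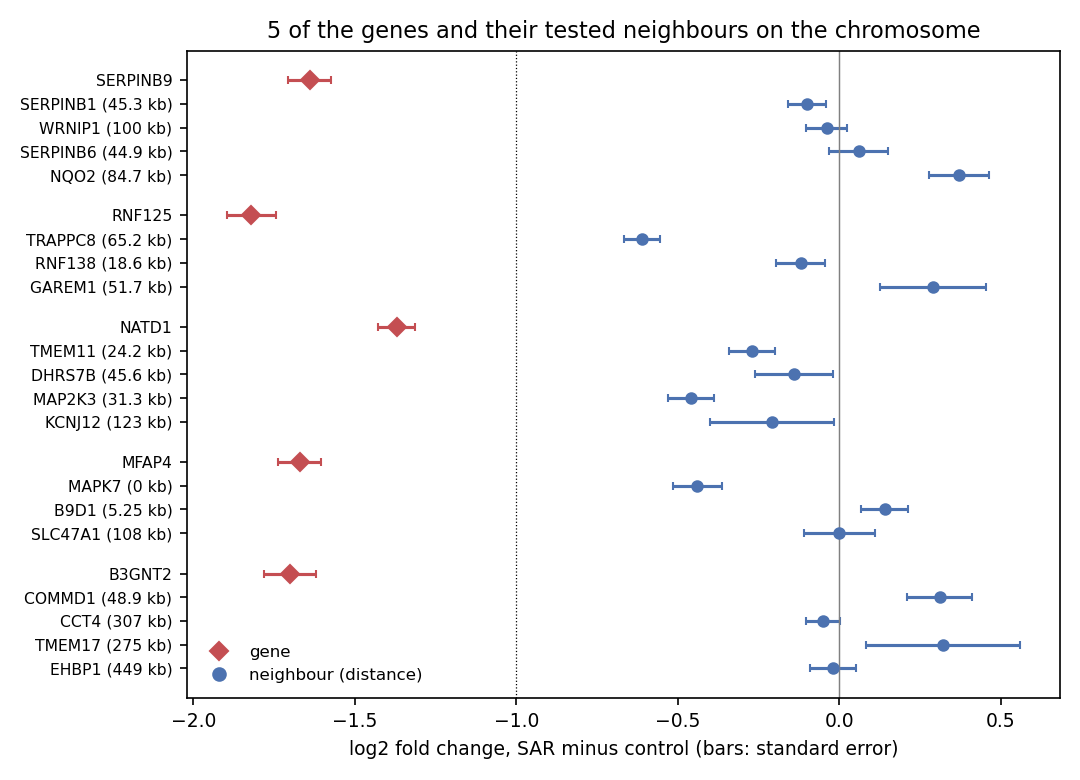
Log2 fold change (SAR minus control, bars are standard errors) of 5 of the 6 genes (red diamonds) and of their tested neighbours (blue circles, distance between gene ends in kb). The 18 neighbours lie between -0.61 and 0.37, to the right of the dotted line at -1, and the neighbours of STC1 are absent because none was tested.

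The profiles of the genes were compared by the root mean square distance between log2(FPKM + 0.1) values over the 6 libraries, each gene centred on its own mean, among 13490 genes averaging 1 FPKM or more. This is a description and follows mostly from the size of the difference between the groups. The 10 pairs among the genes other than STC1 were 0.078 to 0.228 apart, RNF125 and B3GNT2 being the closest, and the 5 pairs with STC1 were 0.443 to 0.664 apart. Leaving the 6 genes themselves out of the search, the gene most like STC1 was NPAP1 at 0.14, a nuclear pore-associated protein, followed by COL5A2 at 0.233, a fibrillar collagen chain. OVCH2, of the trypsin-like protease family, was among the 3 nearest genes outside the 6 for SERPINB9, RNF125, MFAP4 and B3GNT2, and was closest to MFAP4 at 0.0244, with 6.18 FPKM ± 0.349 in control and 1.89 ± 0.137 with SAR. The nearest gene outside the 6, for both SERPINB9 and NATD1, was TNFSF14, a cytokine of the tumor necrosis factor family, at 0.107 and 0.0694. The nearest outside the 6 to RNF125 was TDRD7, a tudor-domain protein of RNA granules, at 0.071, and the nearest outside the 6 to B3GNT2 was CLDN11, a tight-junction claudin, at 0.0803. CCL2, at 0.104, came second for MFAP4 when the 6 are left out.

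The cells carried DE markers in both groups, and these moved with SAR in both directions. All 14 DE markers averaged 1 FPKM or more in control and with SAR. FOXA1 (2.54), FOXA2 (1.44), SOX17 (1.06) and HHEX (1.03) were called higher and GSC (-1.48), EOMES (-1.36), MIXL1 (-1.35), CER1 (-1.28) and GATA4 (-1.05) lower, the values being log2 fold changes. SOX17 and HHEX came under the fold threshold without SAR library 1 (0.87 for each) and after rescaling (0.93 and 0.90), HHEX also without control library 1 (0.95), and GATA4 without SAR library 3 (-0.89) and with a pseudocount of 1 (-0.95). CER1 lost its call with quantile normalization (-0.93). The summed level of the DE markers, most of it CER1, was 4023 to 5129 FPKM in control and 2119 to 2177 with SAR. The 10 pluripotency markers summed to 946 to 1060 and 1152 to 1165 FPKM. Of the 9 tested, NANOG was called lower (-1.30), while 3 were higher at the adjusted p alone, and the median log2 fold change was 0.20. The 12 mesoderm markers summed to 21 to 23.8 and 28.7 to 32.4 FPKM, with TBXT called higher (1.69). The neural ectoderm markers summed to 133 to 144 and 127 to 142 FPKM with SIX3 called higher (1.51, but 0.67 with a pseudocount of 1), where SOX1 was at 0 in all 3 control libraries and HES5 in all 3 SAR libraries, and the extraembryonic and trophoblast markers to 22.9 to 31.9 and 21.8 to 36.5 FPKM with GATA3 called higher (1.08, but 0.99 without control library 3, 0.90 without SAR library 1, 0.96 after rescaling, 0.88 with quantile normalization and 0.68 with a pseudocount of 1). The part of these shifts in the lower levels of the 6 genes was not tested.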

How the data were processed

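RNA-seq was analysed for 3 control and 3 SAR libraries of H1 cells. Groups and replicate numbers came from the sample labels, and every column of the table matched 1 sample by name.

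The authors deposited FPKM for 40396 Ensembl gene IDs, per library and without pooling, from polyadenylated RNA and paired-end reads. The authors' processing notes with the submission list HISAT2, featureCounts of Subread, DESeq2 and the build GRCh38.p13. The annotation release and the strand setting are not given in the sources used here. FPKM carry no scaling between libraries beyond their totals and depend on the gene length used. The authors tested counts with DESeq2, so the test here differs.

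Values were compared on the log2(FPKM + 0.1) scale with limma 3.58.1 under R 4.3.3 (linear models and trended eBayes), restricted to 16371 genes averaging 0.5 FPKM or more, with Benjamini-Hochberg adjustment over all of them. This scale understates changes of low genes. A call required an adjusted p under 0.05 and a log2 fold change beyond 1 in either direction. In simulated data for this comparison, 200 of 16371 genes were shifted by 2 on the log2 scale, up or down. The shifted genes all had a mean log2 value above 1, and the noise was independent and normal. Of the 200, 198 were recovered, with 2 false calls. Shifts so far beyond the fold threshold are easily recovered. Recovery near that threshold or at low levels was not tested. Whole reads were recovered from the FPKM and GENCODE 29 exon lengths (tolerance 0.05) for 61.7% of 39023 genes. For other genes the smallest length giving whole reads in all 6 libraries was used, where one was found. Of the 6 genes only NATD1 had whole reads with the GENCODE length. Read numbers of the others rest on an inferred length, which was furthest from GENCODE for RNF125 (6061 against 6508 bases). Library totals were 16681280 to 24419937 reads. Genes above 0 numbered 33169 in control library 1 and 29506 to 30109 in the other libraries. Read numbers cover counting error only. Replicates of a group differed by more than counting noise. A Python 3.11.15 pipeline (pandas 2.3.3, numpy 2.4.6, matplotlib 3.10.9) made the summaries and plots.

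The 6 genes, the lists and the tests were chosen with earlier results of these data known. Named genes were the 6, the called genes of each list (at most 5 per direction), listed partners, the 2 nearest protein-coding genes on each side and the 3 most alike genes outside the 6. Genes outside this rule are marked as such in the text, and some genes that it names are not reported here. Alternatives were other pseudocounts, filters and scalings, no intensity trend, a replicate block, no minimum fold and each library left out. Voom on the recovered reads and protein-coding genes only were added after seeing the data.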

Additional observations from a re-analysis of the deposited data

How the results depend on the processing

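For the 6 genes, 96 values were computed under alternatives, of which 89 moved by less than the spread between replicates, 7 by more and 0 changed sign, and all 96 stayed below -1. Their median of -1.68 was -1.80 after median-ratio rescaling and between -1.73 and -1.64 with a library left out. Among all tested genes 259 were called lower and 559 higher. These counts were 141 and 169 with a pseudocount of 1, 409 and 340 with quantile normalization, 1563 and 3885 with no minimum fold change, 369 higher with a minimum mean of 1 FPKM, and 113 lower when only protein-coding genes were tested. Leaving out a library gave 215 to 338 lower and 440 to 722 higher. Of the genes of the lists, 11 were called lower and 12 higher, with 7 higher after rescaling and 29 lower and 63 higher with no minimum fold. Leaving out a library gave 10 to 12 and 9 to 16. For 77 named genes outside the 6, 1249 of 1300 values kept direction and call, 29 lost the call, 22 gained one and 0 reversed. With the replicate block 274 genes were lower and 546 higher, and CXCL3 lost its call. Same-numbered libraries had correlated deviations of 0.073, 0.003 and 0.025, so the numbers were not taken as pairs. Voom on the recovered reads called 296 lower and 691 higher. Apart from the fewer genes tested in the protein-coding set and with the higher minimum mean, and the dropped fold threshold, the cause of these moves was not tested. With 3 libraries per group, depth limits mainly the genes under 0.5 FPKM, which were not tested.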
